A study of Mus musculus with 6 samples.

Results

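The FGF receptor genes Fgfr1, Fgfr2, Fgfr3 and Fgfr4 and the neural FGF ligand genes Fgf2, Fgf8 and Fgf9 were examined for CpG methylation in the adult dentate gyrus, the entry region of the hippocampus where new neurons are made throughout life. Their CpG sites were those lying between 1 kb before the gene start and the gene end of each GENCODE M21 record on the mm10 genome. This took 2478 of the 890041 sites measured, in 7 genes. A site is a cytosine of a CpG on 1 strand, so that a CpG read on both strands gives a pair of sites.

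Reduced representation bisulfite sequencing (RRBS), in which DNA is cut at CCGG before bisulfite conversion, had been performed on micro-dissected dentate gyrus. All 6 animals were female C57BL/6JRj mice of 4.5 months, and 1 mouse gave 1 library. From 6 weeks of age, for 3 months, 3 mice had lived in standard cages (STD) and 3 in a larger enclosure with toys and tunnels, called environmental enrichment (ENR). The comparison asks whether a stimulating environment alters methylation at genes with a part in neuronal plasticity, and Fgfr1 was among the genes the study picked from these same libraries. Whole tissue was measured, so a different methylation level per cell and a different share of cell types cannot be told apart.

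Fibroblast growth factors bind receptor tyrosine kinases at the cell surface together with heparan sulfate. The activated receptors signal through the adaptor Frs2 to the Ras and PI3 kinase routes and bind phospholipase C gamma directly, and sprouty proteins feed back on them. In the hippocampus this pathway is known for its role in the proliferation of neural precursors, and methylation of CpG-rich gene starts generally goes with silent genes, whereas gene bodies are commonly methylated.

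The libraries numbered 3 were the lowest of their group over all sites, with means of 22.5% in STD and 21.3% in ENR, against 23.9% to 24.3% in the other 4. At the 95 sites of these genes with a mean between 20% and 80%, counted with the RefSeq record of Fgfr2 that is introduced below, the values were 39.9% in STD replicate 3 and 34.5% in ENR replicate 3, and 42.3% to 48.2% in the other libraries. By the GENCODE records STD replicate 3 had the lowest gene mean in 4 of the 7 genes and ENR replicate 3 in the other 3. The part of this difference between libraries in the results was not tested. Read numbers per site were not used here, so the depth behind each percentage is unknown beyond a minimum of 10 reads.

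The 7 genes covered a wide range of methylation. The mean over the gene region was highest in Fgf2 (35.2% over the 6 libraries), followed by Fgfr1 (17.2%), Fgfr2 (16.2%), Fgfr3 (11.5%), Fgf8 (6.80%), Fgfr4 (5.81%) and Fgf9 (2.84%). Neighbours in this order were separated by more than the range over libraries, except Fgfr1 and Fgfr2, whose ranges overlapped while 5 of 6 libraries kept the order, and Fgf8 and Fgfr4, with 4 of 6 in order. By its RefSeq record, described below, Fgfr2 ran from 12.5% to 14.9% and also overlapped Fgfr3, at 10.003% to 13.2%. Of the 2478 sites, 1782 (71.9%) had a mean under 10% and 182 (7.34%) a mean over 80%. Over all sites of the table these shares were 63.7% and 15.5%. The long record of Fgfr2 held 163 of the 182, and with RefSeq records the shares were 77.7% and 3.74% of 669 sites. At 804 of the sites no library showed any methylation.

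**Figure D1:**
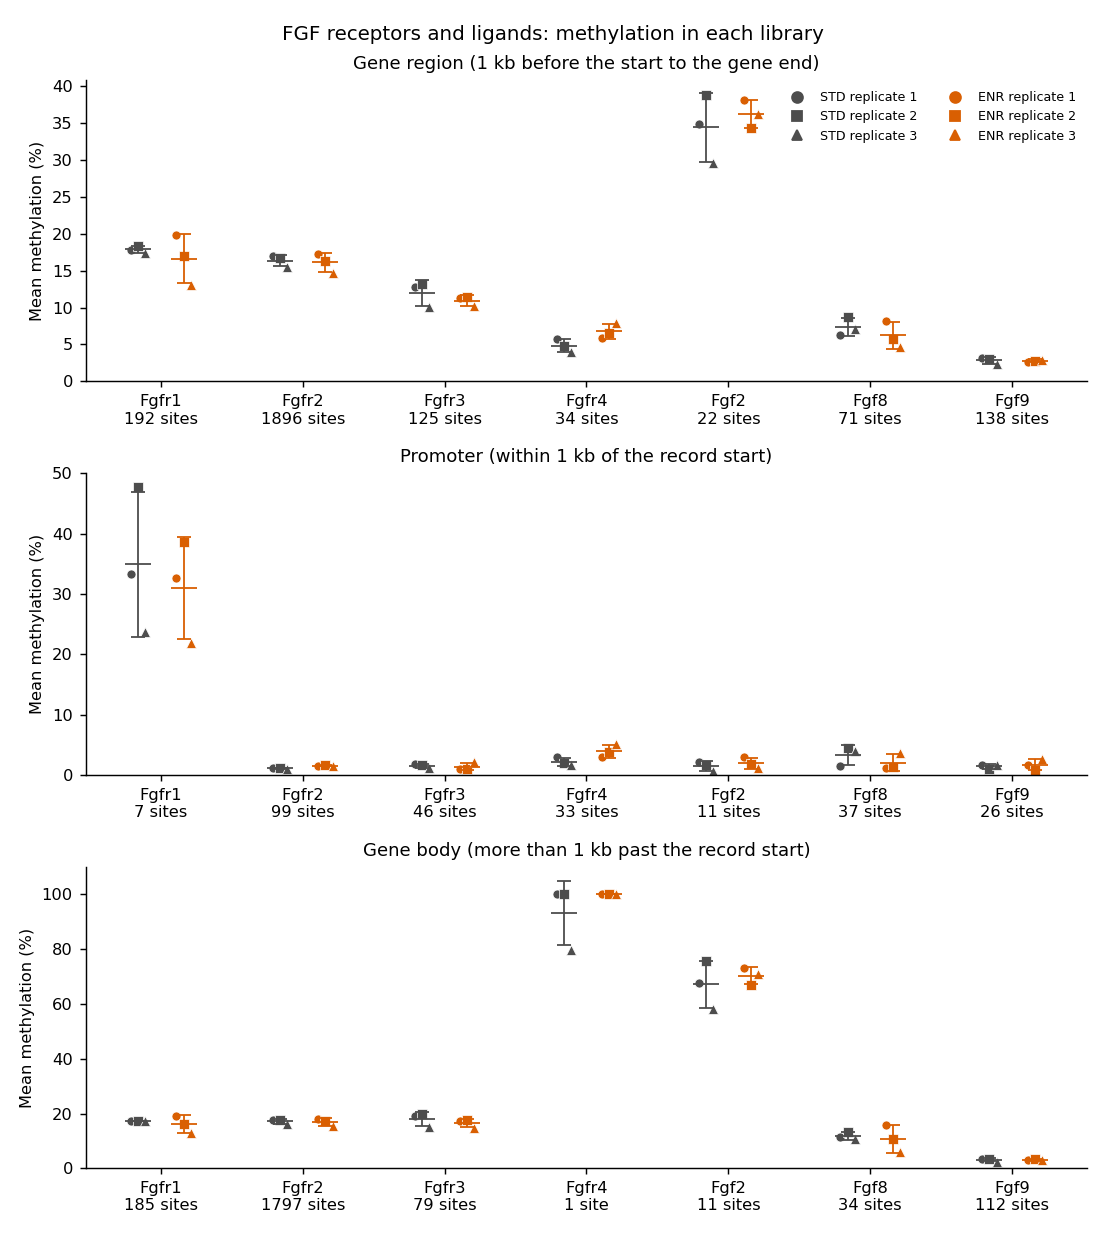
Mean methylation (%, vertical axis) of each gene over its region, promoter and body in the 6 libraries. Points are libraries (grey STD, orange ENR, shapes give the replicate), crossbars the group means with SD (n = 3), and the number of sites stands under each gene. Fgf2 stands highest in the region, Fgfr1 alone has a promoter between 21.9% and 47.6%, and the Fgfr4 body rests on 1 site.

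Fgfr1 encodes the FGF receptor most studied in neural stem cells. Its record (ENSMUSG00000031565.18, plus strand, chr8:25513654-25575718) held 192 sites, of which 7 fell in the promoter, here the sequence within 1 kb of the record start, and 185 in the body, everything further on. Mean methylation of the region was 17.8%, 18.4% and 17.4% in STD replicates 1 to 3 and 19.8%, 17.0% and 13.1% in ENR replicates 1 to 3. ENR thus held both the highest and the lowest library, and the groups overlapped. The difference of group means was -1.25 percentage points, from 17.9% ± 0.468 in STD (SD, n = 3) to 16.6% ± 3.36 in ENR (SD, n = 3) (two-sided exact permutation test, p = 0.7, where 3 against 3 cannot give less than 0.1). Without ENR replicate 3 it was 0.508 percentage points.

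The promoter of Fgfr1 depended on which start was taken. The record begins with a single transcript, while 8 transcripts start from 5105 bases further on, where the RefSeq record also begins (25518759). Around the record start the 7 sites had 33.3%, 47.6% and 23.7% in STD and 32.7%, 38.5% and 21.9% in ENR. Within 1 kb of the downstream starts 97 sites had 1.81%, 2.06% and 2.22% in STD and 1.42%, 1.71% and 1.92% in ENR. The upstream start was therefore far more methylated in every library, and housing groups overlapped at each. The bases within 1 kb of the record start held 34 CpGs with an observed to expected ratio of 0.305, against 148 CpGs and a ratio of 0.807 around the RefSeq start. A stretch of 200 bases past each start, outside untranslated exons, is given from GRCm38 (mm10), where capitals mark CpGs with a measured value. Each stretch was chosen for its many measured sites, so neither shows the average base composition of its surroundings. The first lies at chr8:25515067-25515266, 1413 to 1612 bases past the record start and so beyond the 1 kb counted above. It has 23 sites and a mean of 17.2% in STD and 17.1% in ENR. The second lies at chr8:25519477-25519676, with 19 sites and a mean of 3.15% in STD and 2.68% in ENR.
Fgfr1 past the record start: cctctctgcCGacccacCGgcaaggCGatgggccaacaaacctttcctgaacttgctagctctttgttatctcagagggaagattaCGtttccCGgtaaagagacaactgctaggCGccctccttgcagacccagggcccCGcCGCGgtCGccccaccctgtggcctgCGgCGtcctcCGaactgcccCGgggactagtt
Fgfr1 past the RefSeq start: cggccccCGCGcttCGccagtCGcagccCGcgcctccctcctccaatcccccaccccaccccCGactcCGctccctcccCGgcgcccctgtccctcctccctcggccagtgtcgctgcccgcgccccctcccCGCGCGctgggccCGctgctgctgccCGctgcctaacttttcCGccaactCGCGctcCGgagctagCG

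Further into Fgfr1 methylation was higher and uneven. The 9 sites between 10 and 20 kb from the record start had 64.0%, 59.6% and 56.0% in STD and 71.2%, 40.5% and 33.9% in ENR, and single sites ran from 20.7% to 89.7%. The 12 sites beyond 40 kb had 71.6%, 65.9% and 67.6% in STD and 71.8%, 68.8% and 59.2% in ENR. In the first of these stretches the ENR libraries spread more widely than the STD libraries, with an SD of 19.9 against 4.04, and in both the groups overlapped. The body by the RefSeq record, 60 sites, had 39.0% ± 2.14 in STD (SD, n = 3), against 36.2% ± 7.31 in ENR (SD, n = 3) (exact permutation p = 0.6).

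Fgfr2 encodes a receptor known in the brain from glial cells. Its GENCODE record (ENSMUSG00000030849.18, minus strand, chr7:130162451-133123350) was 2961 kb long because a single transcript begins far upstream, 1004 bases from the start of Ctbp2, a transcriptional corepressor gene. The record took in 69 other genes, 30 of them protein-coding, and 1446 of its 1896 sites lay in other genes. By the RefSeq record (chr7:130162451-130266808, 104 kb) the gene held 133 sites. Most sites of the long record thus belonged to neighbouring genes, and values by both records are given.

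By the GENCODE record the Fgfr2 region had 16.9%, 16.7% and 15.4% in STD and 17.2%, 16.3% and 14.7% in ENR. By the RefSeq record it had 13.3%, 14.9% and 12.8% in STD and 12.5%, 13.6% and 13.0% in ENR. The groups overlapped in each case, with differences of -0.267 (exact permutation p = 0.7) and -0.643 percentage points (exact permutation p = 0.5). The 62 promoter sites of the RefSeq record had 1.85%, 1.81% and 0.985% in STD and 1.18%, 0.415% and 2.12% in ENR. The 99 sites around the record start near Ctbp2 had 1.18%, 1.16% and 0.934% in STD and 1.42%, 1.63% and 1.56% in ENR, so that all ENR libraries lay above all STD libraries there, by 0.447 percentage points in the mean (exact permutation p = 0.1). At the RefSeq start the difference had the opposite sign, -0.307 percentage points (exact permutation p = 0.7). In both places methylation was close to 0. Within the RefSeq record it reached 65.0% over the 22 sites more than 40 kb from the start, and 6 sites near the start of a late transcript had means of 94.6% to 100% in the 6 libraries.

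Fgfr3 encodes a receptor abundant in astrocytes and neural precursors. Its record (ENSMUSG00000054252.18, plus strand, chr5:33721674-33737068) held 125 sites, 93 of which also lay in the noncoding gene G630022F23Rik. Methylation was low near the start and higher beyond 2 kb. The 40 sites in the first 500 bases had 1.27%, 1.27% and 1.34% in STD and 0.691%, 0.564% and 0.716% in ENR. The 6 sites of the next 500 bases had 4.84%, 4.79% and 0% in STD and 3.57%, 3.85% and 11.5% in ENR. Between 1 and 2 kb from the start 47 sites had a mean of 3.60%, between 2 and 3 kb 24 sites had 27.3%, between 7 and 10 kb 6 sites had 64.9%, and the last 2 sites had 75.5%. In the first 500 bases all ENR libraries lay below all STD libraries, but in the next 500 bases the ENR mean was the higher (6.29% against 3.21%), and the whole promoter overlapped, with 1.73%, 1.73% and 1.17% in STD and 1.07%, 0.992% and 2.12% in ENR. That stretch was picked out after the values had been seen and carries no test.

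The step in Fgfr3 lay near 2 kb. A 200-base window at chr5:33723474-33723673, 1800 to 1999 bases past the start, held 24 sites with a mean of 5.97% ± 0.435 in STD (SD, n = 3), against 5.56% ± 1.40 in ENR (SD, n = 3). A window further on, clear of an untranslated exon that lies between, at chr5:33723950-33724149, held 4 sites with 49.3% ± 14.1 in STD (SD, n = 3), against 42.3% ± 12.2 in ENR (SD, n = 3). The first has 15 measured CpGs and the second 4, in capitals.
Fgfr3 before the step: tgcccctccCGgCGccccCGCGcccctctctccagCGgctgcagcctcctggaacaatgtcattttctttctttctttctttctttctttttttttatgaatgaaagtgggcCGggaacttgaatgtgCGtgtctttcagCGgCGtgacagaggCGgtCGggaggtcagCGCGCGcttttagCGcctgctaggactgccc
Fgfr3 after the step: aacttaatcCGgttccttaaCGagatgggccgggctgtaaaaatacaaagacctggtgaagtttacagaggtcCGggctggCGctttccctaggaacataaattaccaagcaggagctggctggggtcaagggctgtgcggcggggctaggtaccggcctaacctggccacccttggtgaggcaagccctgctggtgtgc

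The 6 sites between 7 and 10 kb, around a later transcript start, had 85.0%, 75.2% and 58.8% in STD and 51.2%, 65.8% and 53.6% in ENR. STD replicates 1 and 2 stood above all ENR libraries there and STD replicate 3 among them. Over the whole Fgfr3 region the libraries had 12.7%, 13.2% and 10.003% in STD and 11.3%, 11.4% and 10.1% in ENR. STD held both extremes, and the group means differed by -1.04 percentage points, less than the STD spread (SD) of 1.73 (exact permutation p = 0.4). It was -0.435 without STD replicate 2 and -2.03 without STD replicate 3. The 79 body sites had 18.1% ± 2.54 in STD (SD, n = 3), against 16.5% ± 1.46 in ENR (SD, n = 3) (exact permutation p = 0.4).

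Fgfr4 encodes the receptor best known from liver, where it takes part in bile acid control. Its record (ENSMUSG00000005320.9, plus strand, chr13:55152640-55168759) held 34 sites, 33 of them in the promoter. The promoter sites had 2.90%, 1.92% and 1.72% in STD and 2.98%, 3.76% and 5.08% in ENR. All ENR libraries lay above all STD libraries, although STD replicate 1 and ENR replicate 1 were nearly level. The group means were 2.18% ± 0.630 (SD, n = 3) and 3.94% ± 1.06 (SD, n = 3), a difference of 1.76 percentage points (exact permutation p = 0.1, the smallest possible, and limma adjusted p = 0.993). Of the 33 sites, 16 had the higher mean in ENR, 8 the lower and 9 were equal. Without replicate 3 in both groups the difference was 0.962 percentage points, and after quantile normalization 2.51.

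In the Fgfr4 region as a whole the libraries had 5.75%, 4.80% and 4.01% in STD and 5.83%, 6.59% and 7.87% in ENR, with a difference of 1.91 percentage points (exact permutation p = 0.1, limma adjusted p = 1.0). The region differed from the promoter by 1 body site, in a coding exon at position 55166868, which read 100% in 5 libraries and 79.5% in STD replicate 3. A window of 200 bases outside untranslated sequence, at chr13:55153041-55153240, held 12 sites with 1.80%, 2.08% and 1.45% in STD and 2.96%, 3.17% and 1.83% in ENR. There the groups overlapped. Capitals mark the 11 measured CpGs.
Fgfr4 near its start: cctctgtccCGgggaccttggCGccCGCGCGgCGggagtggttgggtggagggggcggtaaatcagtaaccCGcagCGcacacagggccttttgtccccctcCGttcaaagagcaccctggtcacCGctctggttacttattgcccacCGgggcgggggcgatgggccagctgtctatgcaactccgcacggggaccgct

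Fgf2 encodes basic FGF, the mitogen commonly used to grow neural stem cells. Its record (ENSMUSG00000037225.13, plus strand, chr3:37348346-37410108) held 22 sites, and all 22 also lay in other genes, among them the antisense gene Fgf2os and Nudt6. Fgf2 had a wide contrast along the gene. The 11 promoter sites had 2.20%, 1.65% and 0.616% in STD and 2.94%, 1.76% and 1.07% in ENR. The 11 body sites had 67.5%, 75.7% and 58.3% in STD and 73.1%, 66.9% and 71.1% in ENR. Promoter and body did not approach each other in any library, while the housing groups overlapped in both parts. Within the body, 4 sites between 3 and 5 kb had a mean of 89.5%, 3 sites between 20 and 40 kb had 93.9% and 4 sites beyond 40 kb had 29.3%. The body means differed by 3.17 percentage points, less than the STD spread (SD) of 8.68 (exact permutation p = 0.7) and became -1.25 without STD replicate 3.

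Fgf8 encodes a ligand that patterns the forebrain and midbrain of the embryo. Its record (ENSMUSG00000025219.13, minus strand, chr19:45736798-45742915) held 71 sites. Methylation formed a shallow dip at the start, with 3.73% over the 15 sites upstream, 0.372% over the 13 sites in the first 500 bases, and 12.2% over the 29 sites between 1 and 2 kb. The 37 promoter sites had 1.40%, 4.43% and 3.97% in STD and 1.09%, 1.32% and 3.66% in ENR. The 34 body sites had 11.6%, 13.3% and 10.6% in STD and 15.9%, 10.7% and 5.88% in ENR. Neither part separated the groups, with differences of -1.25 (exact permutation p = 0.2) and -0.990 percentage points (exact permutation p = 0.8). Without ENR replicate 3 the body difference was 1.48.

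Fgf9 encodes a ligand made by neurons that acts on glia. Its record (ENSMUSG00000021974.15, plus strand, chr14:58070547-58112720) held 138 sites and had little methylation beyond its promoter too. The 26 promoter sites had 1.71%, 1.01% and 1.70% in STD and 1.59%, 0.864% and 2.65% in ENR. The 112 body sites had 3.52%, 3.59% and 2.46% in STD and 2.89%, 3.28% and 3.04% in ENR. No site of Fgf9 had a mean over 80%, 129 of the 138 were under 10%, and 59 were at 0% in every library. The low stretch ran over the starts of all 4 transcripts, the last of them 5960 bases past the record start, where 82 sites had a mean of 1.54%. The 6 sites between 20 and 40 kb stood higher, at 24.2%. A window of 200 bases dense in measured sites lay at chr14:58076285-58076484, 5738 to 5937 bases past the record start. Their 33 sites, in the 19 CpGs in capitals, had 1.84% ± 0.835 in STD (SD, n = 3), against 1.81% ± 0.619 in ENR (SD, n = 3).
Fgf9 body: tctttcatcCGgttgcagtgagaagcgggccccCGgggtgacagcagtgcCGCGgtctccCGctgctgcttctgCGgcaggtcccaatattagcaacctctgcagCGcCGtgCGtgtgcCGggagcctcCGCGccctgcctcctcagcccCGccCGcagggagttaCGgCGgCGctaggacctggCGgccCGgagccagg

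**Figure D2:**
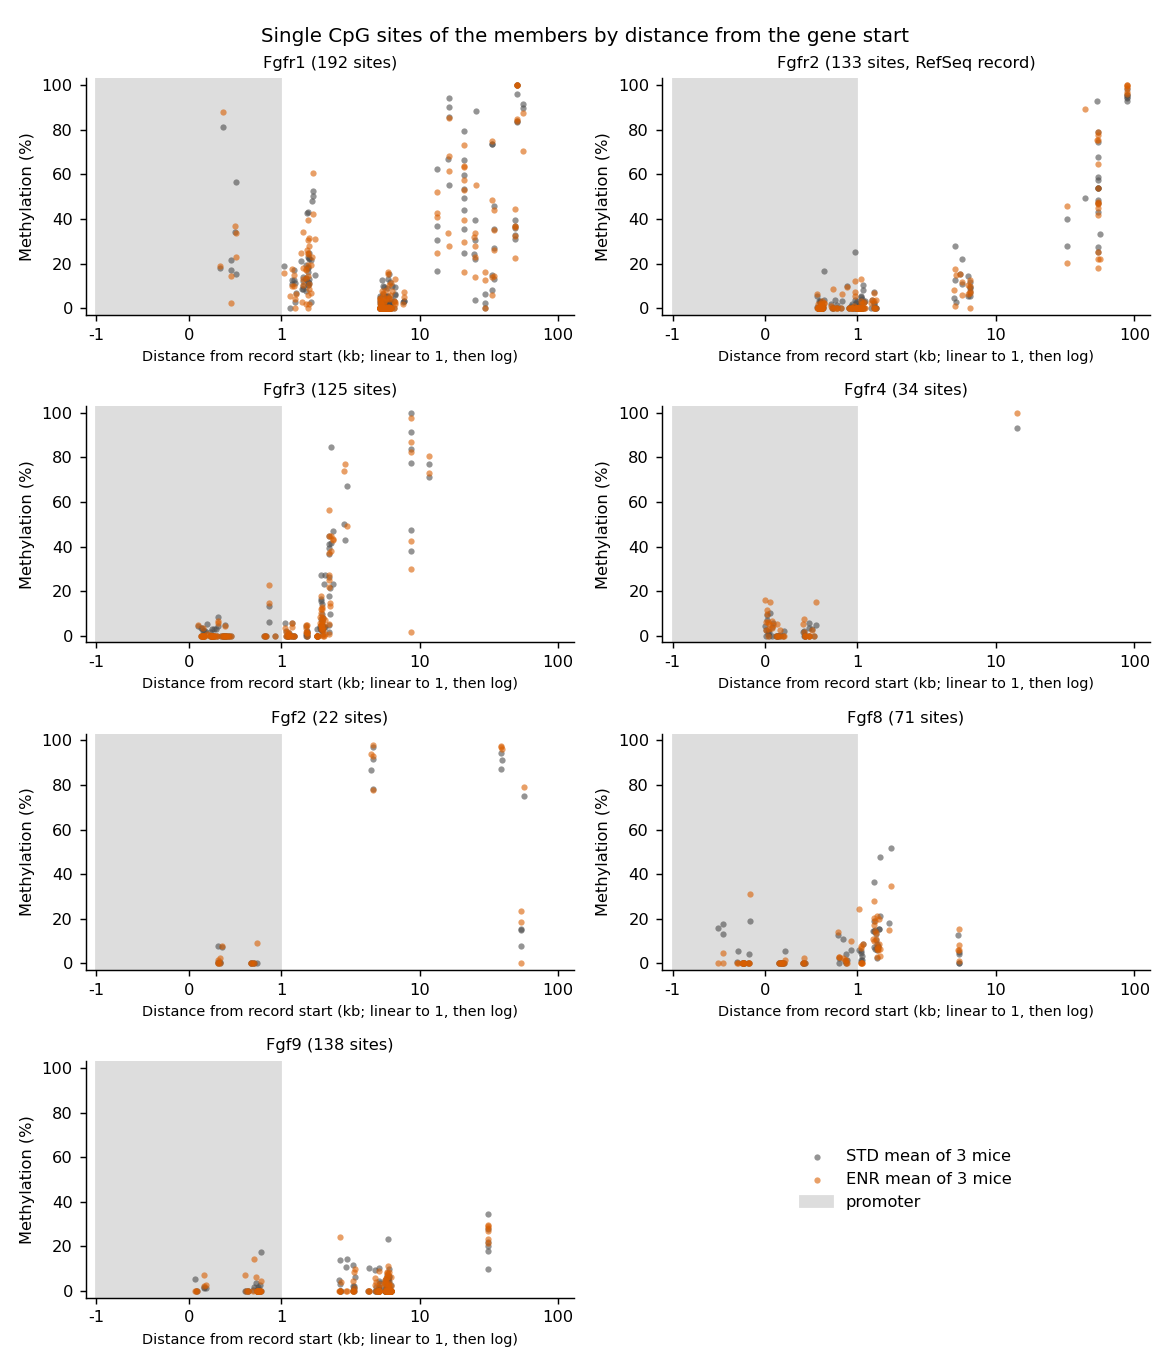
Methylation of each site (%, vertical axis) against its distance from the record start (kb, linear to 1 kb and logarithmic beyond). Each point is the mean of 3 STD (grey) or 3 ENR (orange) mice at 1 site, the promoter is shaded, and Fgfr2 is drawn by its RefSeq record. Fgfr3 climbs beyond 2 kb, Fgf2 is near 0 in its promoter and mostly high in its body (mean 68.8%), Fgf9 stays low up to 7 kb and stands at 24.2% beyond 20 kb, and the low stretch of Fgfr1 lies between 5 and 10 kb.

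Promoter and body were then compared within libraries, each mouse serving as its own control, with limma across 9152 genes. Of the 6 genes with at least 3 sites in each part, 5 had the higher body: Fgf2 by 67.1 percentage points, Fgfr3 by 15.8, Fgfr2 by 15.7, Fgf8 by 8.67 and Fgf9 by 1.54. The adjusted p-values were 5.7e-07, 5.5e-06, 1.5e-06, 0.00223 and 0.0486, and the body was higher in 6 of 6 libraries for each of these genes. Among all genes 82.2% were called with the higher body, and the median over all genes was 33.0 percentage points. With a promoter around every transcript start the Fgf9 contrast was 10.3 percentage points (limma adjusted p = 0.00016), and with the median over sites the Fgfr3 contrast was 4.81 (limma adjusted p = 0.00282). The Fgfr2 value is that of the long record, and by the RefSeq record the 6 libraries had differences of 20.4 to 24.7 with a mean of 22.4, from a body of 24.3% in STD and 23.4% in ENR. Fgfr1 was called with the lower body by 16.3 percentage points (limma adjusted p = 0.00305), as were 5.29% of all genes. Its sign rested on the record start. With a promoter around every transcript start, the Fgfr1 body was higher by 17.0 percentage points (limma adjusted p = 7.1e-05), and by the RefSeq record the 6 libraries had differences of 27.1 to 42.2. The Fgf9 call was lost on leaving out any of STD replicates 1, 2 and 3 and ENR replicates 1 and 2, with limma adjusted p between 0.0549 and 0.141.

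Genes of like profile were sought among 6638 other protein-coding genes with at least 5 sites in each part, by the root mean square difference over 12 values, the promoter and body means of the 6 libraries. Nearest to Fgfr3 were Tnfrsf19 (0.880 percentage points) and Itga1 (0.884). Near to Fgf9 was Dmrt2 (0.552), a developmental transcription factor gene with a body mean of 3.25%. Fgf2 was nearest to Rab36 (2.15) and Dennd3 (2.47), and Fgf8 to Dgkz (1.54) and Gm49601 (1.5996). By their GENCODE records Fgfr1 was nearest to Il17rc (5.30) and Pcdhga9 (6.32), and Fgfr2 to Eml6 (0.607) and Rnf220 (0.664).

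The difference between housing groups was tested gene by gene with limma across the table. None of the 7 genes was called in the region, where 0.0% of 22934 genes were (886 at an unadjusted p under 0.05). None was called in the promoter, where 0.0% of 17950 genes were (788 unadjusted), or in the body, where 0.0% of 14012 were (493 unadjusted). Before adjustment the Fgfr4 region (limma, p = 0.0438, adjusted p = 1.0, beside an exact permutation p = 0.1) was the only member value under 0.05 in the fit described here, and the Fgfr4 promoter also came under 0.05 in some alternatives, with no adjusted p under 0.05. With medians over sites the Fgfr1 region differed by -3.68 percentage points (limma adjusted p = 0.959) and the Fgfr1 body by -3.53 (limma adjusted p = 0.999), both also under 0.05 before adjustment. For the difference of body minus promoter between ENR and STD no member was called either, with 0.0% of 9152 genes called (324 unadjusted). Differences of that contrast ran from -1.41 percentage points in Fgfr3 to 2.74 in Fgf2, with limma adjusted p = 1.0 in each of the 6 genes.

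Groups that did not overlap were seen in 1 of 7 regions (Fgfr4), against 8.47% of all genes, and in 2 of 7 promoters (Fgfr4 and the Fgfr2 record start), against 9.49%. In the body there were 0 of 6, against 7.91%. The ENR mean of the region was lower in 5 of the 7 genes, all but Fgfr4 and Fgf2, but after quantile normalization the signs of Fgfr2 and Fgf9 turned. Over all genes fitted 57.6% had the lower mean in ENR, and the median difference was -0.194 percentage points, against -0.267 over the 7.

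**Figure D3:**
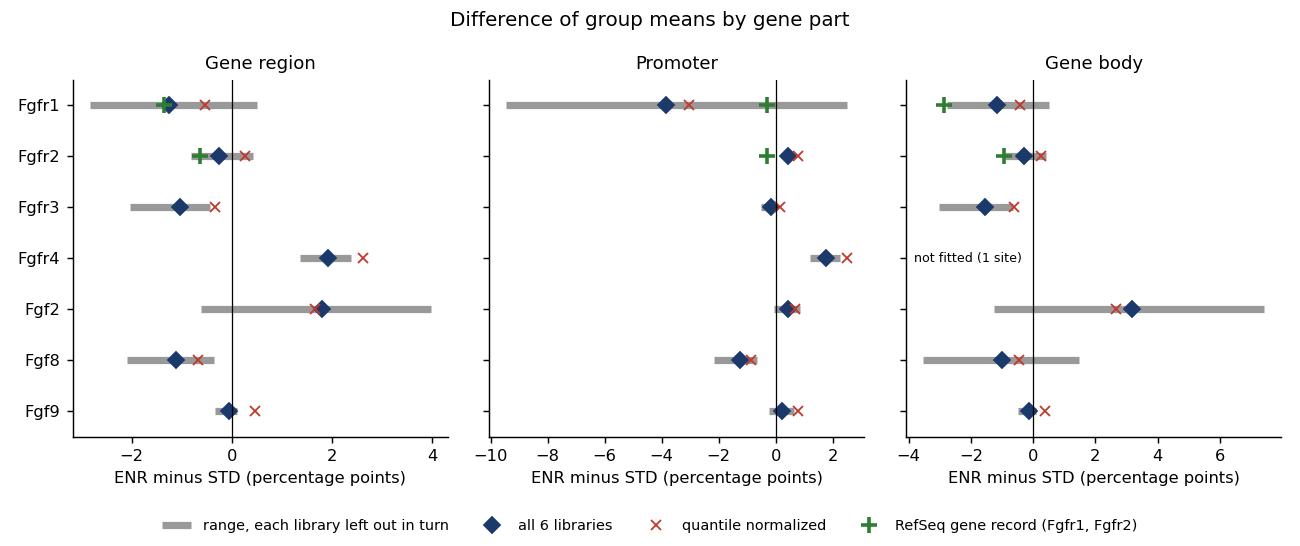
Difference of ENR and STD means (percentage points, horizontal axis) for each gene, by part. Diamonds use all 6 libraries, grey bars span the values with each library left out in turn, red crosses follow quantile normalization, and green plus signs use the RefSeq record of Fgfr1 and Fgfr2. The bars cross 0 for Fgfr1 in every part and stay above it for Fgfr4.

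At single sites the study's size limit of 25 percentage points was applied to the group means. It was passed by 42 of the 2478 sites, 27 of them lower and 15 higher in ENR, which is 1.69% against 1.94% of all sites. In 17 of the 2478 the groups also did not overlap, and 0.81% of all sites met both conditions. Fgfr2 by its long record held 32 of the 42. Without Fgfr2 there were 10 of 582 sites, 9 lower and 1 higher, and in 3 of these the groups did not overlap. Over all sites the split was 10987 lower and 6281 higher. Those of the members lay in Fgfr1 (5), Fgfr3 (4) and Fgf8 (1). Fgfr4, Fgf2 and Fgf9 had none. Sites whose groups did not overlap, of whatever size, numbered 116 of 2478 (4.68%), against 3.99% of all sites. No site was called by limma with an adjusted p under 0.05 and over 25 percentage points (0.0% of 615152 sites that varied). An unadjusted limma p under 0.05 was reached by 16498 of the 615152 sites, and by 53 of the 1662 that lay in these genes.

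For each gene the site with the largest difference among those without overlap was taken, and each had a limma adjusted p of 0.852. In Fgfr1 it lay in an intron at chr8:25539014, 25360 bases past the record start, with 77.8%, 87.5% and 100% in STD and 50%, 68.4% and 47.4% in ENR. No other site lay within 100 bases. In Fgf8 it lay in an intron at chr19:45741449 with 34.4%, 23.1% and 85.7% in STD and 0%, 19.0% and 0% in ENR. The 9 other sites within 100 bases had 10.2% in STD and 9.25% in ENR, beside a difference of -41.4 percentage points at the site itself. Without STD replicate 3, the highest library, it was -22.4.

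In Fgfr3 the site at chr5:33723748, 2074 bases past the start, had 21.1%, 33.3% and 28% in STD and 15.8%, 0% and 5.36% in ENR. Of 9 sites within 100 bases 7 had the same sign, with 7.17% in STD and 3.56% in ENR. In Fgf9 the intron site at chr14:58073520 had 22.2%, 7.55% and 13.7% in STD and 0% in all ENR libraries, and the 1 other site within 100 bases had 10.7% in STD and 0% in ENR. The Fgf2 site in an untranslated exon at chr3:37348658 had 10.9%, 8.16% and 4.65% in STD and 0% in ENR, whereas 5 sites around it had 1.70% and 2.38%. The Fgfr4 site was the second base of the gene at chr13:55152641, with 5.71%, 5.06% and 2.27% in STD and 9.09%, 21.4% and 17.1% in ENR, and 9 of 12 neighbours had the same sign.

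In Fgfr2 the RefSeq record gave an intron site at chr7:130212020 with 41.1%, 62.1% and 58.1% in STD and 6.67%, 32.7% and 36% in ENR, among 6 neighbours with 59.2% and 55.5%. By the long record the largest difference lay in an intron of Tacc2 at chr7:130614393, with 49.4%, 71.0% and 0% in STD and 98.4%, 75.8% and 89.5% in ENR, and without STD replicate 3 it was 27.7 percentage points instead of 47.8. The sequence around the sites inside the member genes is given on the plus strand, with the CpG in capitals, shortened to 29 bases at the untranslated exons of Fgfr4 and Fgf2.
Fgfr1 25539014: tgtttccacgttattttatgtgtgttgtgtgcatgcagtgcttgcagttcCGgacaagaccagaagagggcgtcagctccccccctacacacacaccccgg
Fgfr2 130212020: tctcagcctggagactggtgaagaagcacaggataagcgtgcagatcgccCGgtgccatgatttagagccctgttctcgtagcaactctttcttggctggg
Fgfr3 33723748: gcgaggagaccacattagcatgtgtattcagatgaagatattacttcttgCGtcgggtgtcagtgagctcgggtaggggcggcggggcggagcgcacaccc
Fgfr4 55152641: tggacgtggggcccCGgaacgactgagac
Fgf2 37348658: gggtgacgcggcccCGggccgttgtacac
Fgf8 45741449: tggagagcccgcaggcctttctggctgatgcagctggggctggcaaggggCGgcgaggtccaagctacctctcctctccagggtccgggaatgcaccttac
Fgf9 58073520: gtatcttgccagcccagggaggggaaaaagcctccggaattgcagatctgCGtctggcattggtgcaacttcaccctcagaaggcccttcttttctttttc

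**Figure D4:**
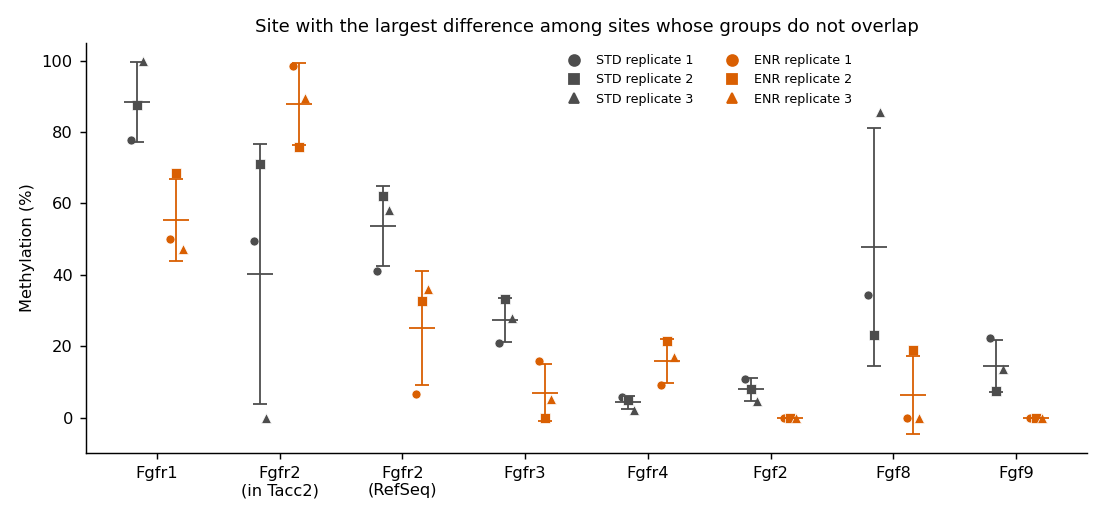
Methylation (%, vertical axis) in the 6 libraries at the site of each gene with the largest difference of group means among sites whose groups do not overlap, for Fgfr2 by the long record (in Tacc2) and by the RefSeq record. Points are libraries, crossbars group means with SD (n = 3). The STD libraries at the Tacc2 and Fgf8 sites spread from 0% to 71.0% and from 23.1% to 85.7%, and ENR was at 0% at the Fgf2 and Fgf9 sites.

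Single sites varied between the mice of a group. Over sites with a mean of 10% to 80% the median SD within groups was 15.2 percentage points in these genes and 15.5 over the table, and over sites under 10% it was 1.12 and 0.935. With the RefSeq record for Fgfr2, 157 of 558 CpGs had a value on both strands, and in the 34 of these between 10% and 80% the median difference between the strands of a CpG in 1 library was 10.3 percentage points, beside a median SD between mice of 8.99.

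The other genes of the pathway were taken from a list of 46, of which 42 had at least 3 sites in the region. With limma none was called in any part. In the region 27 had the lower and 15 the higher mean in ENR, with a median difference of -0.224 percentage points, against -0.194 over all genes. The groups did not overlap in 3 of 42 regions, 5 of 37 promoters and 0 of 35 bodies (7.14%, 13.5% and 0%), against 8.47%, 9.49% and 7.91% of all genes. Fgf23, a hormone of phosphate balance, had 4.87%, 5.90% and 4.004% in STD and 2.86%, 2.08% and 3.51% in ENR, with limma adjusted p = 1.0. Its 3 promoter sites had means of 28.1% in STD and 6.70% in ENR, and its 22 body sites 1.76% and 2.29%. Fgfrl1, a receptor without a kinase domain, had 3.15%, 3.15% and 3.20% in STD and 2.43%, 2.94% and 2.48% in ENR. Spred3, an inhibitor of Ras signaling, had 7.96%, 7.997% and 7.41% in STD and 9.60%, 11.1% and 8.03% in ENR.

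By class, 12 of 17 other ligands, 2 of 3 receptors and co-receptors, 5 of 7 adaptors and 6 of 8 feedback inhibitors had the lower region mean in ENR, as did 1 of 3 target factors and 1 of 4 binding partners. Over the list this was 64.3%, against 57.6% of all genes. Among region means the largest differences toward lower values were in Flrt3, a membrane partner of FGF receptors (-6.43 percentage points, 18 sites), and Fgf7, the keratinocyte growth factor (-5.51, 5 sites). The groups overlapped in both (exact permutation p = 0.5 and 0.3). Flrt3 had 88.4%, 84.8% and 73.2% in STD and 81.3%, 81.7% and 64.1% in ENR. Toward higher values the largest were in Spred3 (1.79) and the adaptor Grb2 (1.20). Grb2 had 1.51%, 0.446% and 1.15% in STD and 2.17%, 3.40% and 1.14% in ENR, so its groups overlapped (exact permutation p = 0.3). Promoters of the list had a median level of 1.45% over 37 genes, close to 1.71% over the 7 members and 1.80% over all genes, and bodies 28.7% over 35 genes, against 16.8% over 6 members and 43.1% over all genes. The member value follows the GENCODE records, with bodies of 16.6% in Fgfr1 and 17.0% in Fgfr2. By the RefSeq records these bodies had 37.6% and 23.8%.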

How the data were processed

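Bisulfite sequencing libraries (RRBS) of 6 mice, 3 per group, were analysed from 1 table of CpG methylation. The authors deposited methylation in percent per cytosine and library, on mm10, for cytosines covered by at least 10 reads. The submitters' processing notes name Trim Galore 0.4.0, cutadapt 1.8.1, Bismark 0.16.1 and methylKit 1.5.2. The paper's methods give later versions of Trim Galore and Bismark. Read numbers were not used here, so the study's test on reads could not be run and depth per site is unknown. Values were missing in 0 cells and 0 columns were left unused.

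Sites were assigned to GENCODE M21 gene records and averaged per library over the region, the promoter (within 1 kb of the start) and the body. Genes with at least 3 sites were fitted with limma 3.58.1 (R 4.3.3, variance trend, two-sided, Benjamini-Hochberg over all genes or sites, threshold 0.05), a procedure tested on simulated data. Single member values were compared by an exact permutation test over 20 regroupings (smallest p = 0.1). All 7 members were named, with each member's largest site difference among sites without overlap between groups, pathway genes without overlap in the region and the 2 largest differences in each direction, and the 2 most alike genes, 1 of which is not reported here. Members and lists were chosen with earlier results of these data known. RefSeq records (GRCm38.p6) were added after the data had been seen, since the records of Fgfr1 and Fgfr2 begin far upstream. Sequences were read from GRCm38. Alternatives covered the site average, strands, quantile normalization, variance trend, scale, minimum number of sites, definition of the promoter, size limit, left-out libraries and a replicate block.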

Additional observations from a re-analysis of the deposited data

How the results depend on the processing

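No gene was called between ENR and STD in the region, the body or the housing difference of body minus promoter under any alternative run, and no site was. In the promoter the arcsine square root scale called 1 gene, Alox5 (5 sites, STD 6.48%, 4.86% and 6.36%, ENR 0%, limma adjusted p = 0.0132), which is no member and was named after its values were seen. The smallest limma adjusted p in the promoter ranged from 0.0132 to 0.988 over 16 alternatives. Fgfr4 remained higher in ENR with each library left out, by 1.36 to 2.38 percentage points in the region and 1.19 to 2.24 in the promoter, and without replicate 3 in both groups by 0.934 and 0.962.

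The call of Fgfr1 body minus promoter reversed, from -16.3 to 17.0 percentage points, on taking any transcript start. Uncalled differences changed sign as follows. Quantile normalization gave 0.268 (Fgfr2) and 0.468 (Fgf9) percentage points in the region, 0.140 in the Fgfr3 promoter, and 0.240 (Fgfr2) and 0.390 (Fgf9) in the body. Averaging both strands first gave 0.0204 in the Fgf9 region. The median over sites gave 0.531 in the Fgfr1 promoter and 0.673 in the Fgf8 body. Taking any transcript start gave -0.271 in the Fgf9 promoter and 1.87 in the Fgf9 body, and the RefSeq record gave -0.307 in the Fgfr2 promoter. Apart from the construction of these alternatives, the cause was not tested.

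Leaving out 1 library at a time gave differences in the region from -2.84 to 0.508 (Fgfr1), -0.820 to 0.417 (Fgfr2), -0.627 to 3.97 (Fgf2) and -0.329 to 0.101 (Fgf9). In the promoter they ran from -9.44 to 2.52 (Fgfr1), -0.512 to 0.0505 (Fgfr3), -0.0732 to 0.860 (Fgf2) and -0.247 to 0.645 (Fgf9). In the body they ran from -2.77 to 0.500 (Fgfr1), -0.893 to 0.416 (Fgfr2), -1.25 to 7.43 (Fgf2), -3.54 to 1.48 (Fgf8) and -0.484 to 0.0818 (Fgf9). The housing difference of body minus promoter ran from -3.66 to 8.27 (Fgfr1), -1.25 to 6.91 (Fgf2), -2.76 to 3.54 (Fgf8) and -0.868 to 0.140 (Fgf9). Differences that kept their sign ran from -2.03 to -0.435 (Fgfr3 region), -3.01 to -0.654 (Fgfr3 body), -2.10 to -0.367 (Fgf8 region) and -2.18 to -0.665 (Fgf8 promoter), and in the housing difference of body minus promoter from -1.40 to -0.0194 (Fgfr2) and -2.67 to -0.203 (Fgfr3). Without replicate 3 in both groups the signs turned in the region of Fgfr1 (0.282) and Fgf2 (-0.605), the Fgf9 promoter (-0.133), and the body of Fgfr1 (0.477), Fgf2 (-1.63) and Fgf8 (0.856). The housing difference of body minus promoter of Fgf2 turned as well (-2.06). The 42 sites over 25 percentage points became 74 at a limit of 20 and 6 at 40, and 50 to 72 with 1 library left out, with 72 without ENR replicate 1 and 66 without ENR replicate 2. Without Fgfr2, 10 became 17 at 20, 3 at 40 and 10 to 17 with 1 library left out, the highest without ENR replicate 1. Of the member values under alternatives, 425 kept sign and side of the threshold, 48 changed sign and 5, all Fgf9 body minus promoter, lost the call.

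Whether replicate numbers pair the mice is not known from the sample names. Same-numbered libraries correlated by 0.0602, 0.0348 and 0.135 in their deviations, and unlike-numbered libraries by -0.0892 to 0.0448. With the replicate block limma called 0 genes and 0 sites. At an unadjusted p under 0.05 there were 1152 genes in the region, 825 in the promoter and 733 in the body. For the housing difference of body minus promoter there were 455 genes, and 15810 single sites. Without read numbers the counting error of a site is unknown, and the median SD between mice was 15.2 percentage points at sites between 10% and 80%.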
